A study of Bos taurus with 12 samples.

Results

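The genes described here are targets and antagonists of bone morphogenetic protein (BMP) signalling in bovine cumulus cells: ID1, ID2, ID3, ID4, SMAD6, SMAD7, SKIL, BAMBI, GREM1 and NOG. They were chosen by gene symbol in the annotation of the array, with earlier results on these same ratios known, so their ratios to the reference stage are given as a description and without a test. Of the 10 symbols, 9 were carried by at least 1 probe and 15 probes carried them, out of 15216 genes and 43794 probes. ID3 had 5 probes, BAMBI had 3, the other genes had 1 each, and no probe of the annotation used here carried ID4. All 15 probes passed the filter on dim signal described below, as did 36321 of all probes.

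BMPs are secreted ligands that bind pairs of type I and type II receptor kinases. The receptors phosphorylate SMAD1, SMAD5 and SMAD9, which join SMAD4 and switch on target genes in the nucleus. The ID genes are among the best known of these targets, and SMAD6 and SMAD7 are targets that feed back to block the pathway. In the ovary, the oocyte and the somatic cells of the follicle exchange ligands of this family, and the cumulus cells, which surround the oocyte, are exposed to those it secretes, such as BMP15 and GDF9.

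Cumulus cells were taken from ovaries of slaughtered cattle (Bos taurus), 1 cumulus-oocyte complex at a time, and each complex was assigned to a germinal vesicle stage by the chromatin of its oocyte. The stages run from GV0, with diffuse chromatin, through GV1 and GV2 to GV3, the most condensed. The labels state that cells from 10 complexes with the same stage went into each RNA extraction, and the RNA was amplified in 2 rounds before labelling. No cell received a treatment, and the labels give neither breed nor age. The later stages (GV1, GV2, GV3) carried the dye Cy5 and GV0 carried Cy3, and 1 later-stage sample and 1 GV0 sample shared each of the 4 areas of a slide. There were 4 arrays per stage, called arrays 1 to 4 after their area, and 12 arrays in all. Each stage occupied 1 slide, so slide and stage cannot be told apart where stages are compared with each other. GV0 was in Cy3 on all 12 arrays, so any preference of a probe for 1 dye is part of every ratio to GV0. Whether pools came from different animals is not stated, so the p-values cover only how these pools varied, which may be partly technical. Fits with the area number as a fixed block, given below, leave the spread between areas out of their p-values.

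Each value below is a log2 ratio of a stage over GV0 after background correction and within-array loess normalisation, unless it is called a signal. A ratio of 1 means that the stage signal was 2-fold the GV0 signal. The median spot signal of an array was 132 to 230 in the Cy5 channel and 277 to 373 in the Cy3 channel, and 59.9% to 83.6% of probes in Cy5 and 65.8% to 79.5% in Cy3 were above the negative controls. Of 11 markers of cumulus and granulosa cells, all had a kept probe, and 10 or 11 were above background in Cy5 on each array. Some markers of other cells differed from GV0 too. The 4 kept of 5 mural granulosa markers had a mean ratio of 0.19 to 1.40 on the 12 arrays, above GV0 on each, and GPX3 among them rose by 1.64, 1.92 and 1.86 at GV1, GV2 and GV3 (limma adjusted p = 0.0231, 0.0111 and 0.0118). GPX3 was the single one of the 4 to pass an adjusted p under 0.05 at each stage. The lowest of the 4 had ratios of 0.01, -0.08 and -0.11. LHCGR, also on that list, had no kept probe. The 8 kept of 12 leukocyte markers had a mean ratio of -0.01 to 0.45. Their median ratios at GV1, GV2 and GV3 were 0.08, 0.01 and 0.15, and their lowest were -0.50, -0.25 and -0.37. Of these markers, 3, 1 and 2 passed an adjusted p under 0.05, all above GV0, where 9.47%, 10.3% and 11% of all genes did. CD68, a macrophage marker, was among them and rose by 0.88, 0.98 and 1.22 (limma adjusted p = 0.0391, 0.025 and 0.00944). Of 9 kept endothelial markers, 3, 3 and 2 passed, all below GV0. Of 11 kept oocyte markers, 1, 2 and 1 passed above GV0, and 1 passed below it at each stage. Of 12 theca and stroma markers 2, 2 and 0 passed, and of 4 kept red blood cell markers 0, 1 and 0. The shares of all genes beside these counts are the same as for the leukocyte markers. The part of all these cells in the values below was not tested. A ratio of pooled cells cannot tell fewer cells of a type from less RNA per cell. Array 3 of GV1 stood apart: the mean ratio of its 12 theca and stroma markers was 1.91, against -0.20 to 0.03 on the other 11 arrays. Some of the GV1 values below are given with and without this array. The Cy3 signals of the 3 arrays with the same area number correlated at 0.988 to 0.997 over probes, against 0.923 to 0.972 between areas, so the area number goes with 1 GV0 signal pattern.

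Among the BMP genes, ID1 and ID3 were lower than in GV0 on all 4 arrays of GV2 and of GV3, with mean ratios at GV3 of -1.07 ± 0.35 for ID1 and -1.85 ± 0.57 for the brightest probe of ID3 (SD, n = 4). SKIL was higher on all 12 arrays, and NOG on 11 of 12. GREM1 was lower on all 12 arrays by a small amount. SMAD6 differed more between the areas of a slide than between stages, and ID2, SMAD7 and BAMBI had no direction shared by all stages. In the model over all probes, 3 of the 9 genes passed an adjusted p under 0.05 at GV1, 3 at GV2 and 4 at GV3, where 9.47%, 10.3% and 11% of all 13534 genes did. With the area number as a block, the counts were 4, 4 and 6, against 29.8%, 29.7% and 30.8% of all genes. Nothing is read from these counts, because the genes were chosen on the same ratios.

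**Figure D1:**
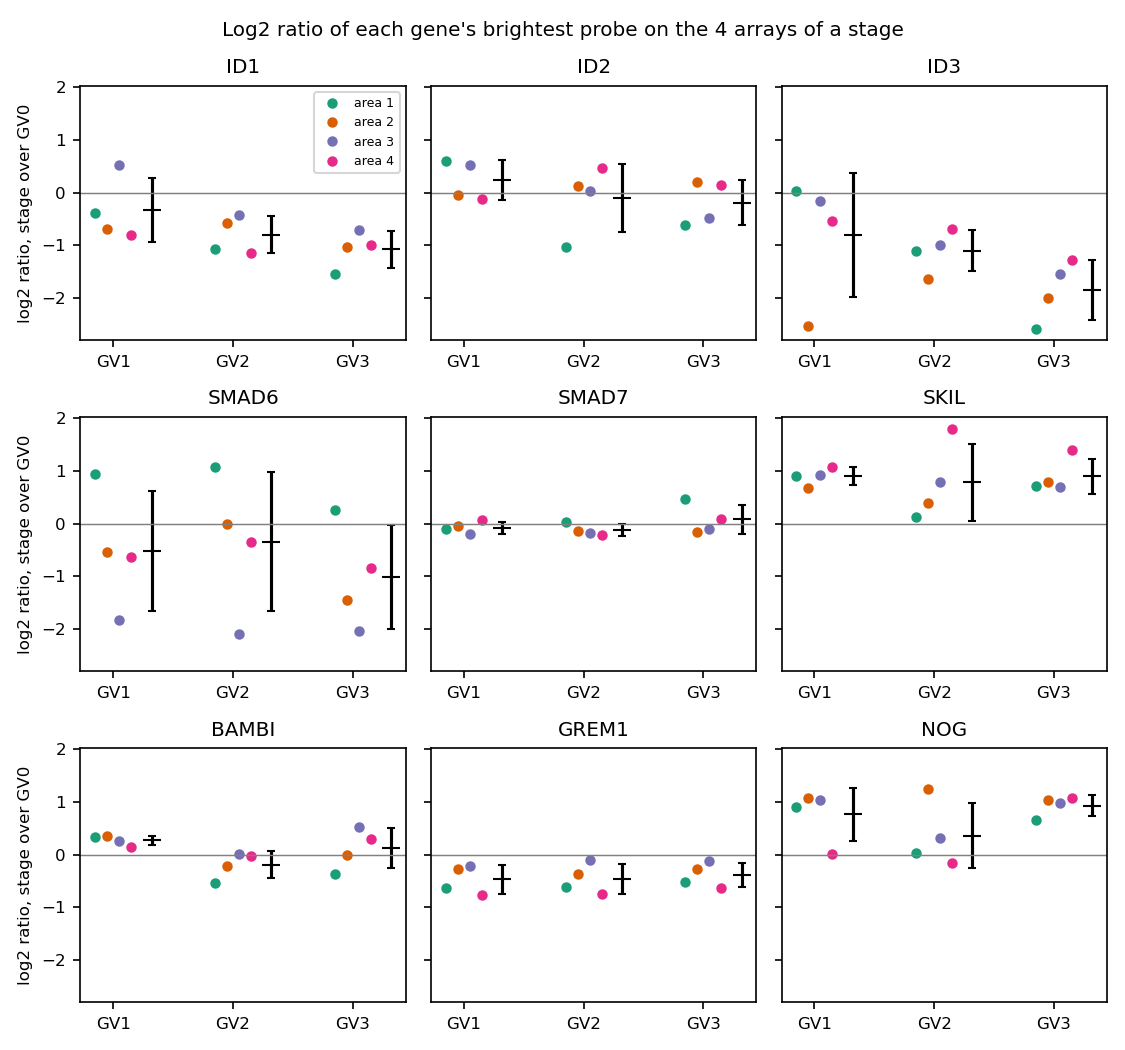
Log2 ratio of the stage (Cy5) over GV0 (Cy3) for the brightest probe of each of the 9 genes, with 1 point per array coloured by area number and the mean ± SD of the 4 arrays of a stage as a bar. ID1 and ID3 lie below 0 on every array of GV2 and GV3, SKIL lies above 0 on all 12 arrays, and the points of SMAD6 are ordered by area in each stage.

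The ID proteins are helix-loop-helix proteins without a DNA-binding region that bind E proteins and keep them from DNA. ID1, the most widely used readout of BMP signalling, had ratios of -0.38, -0.68, 0.52 and -0.80 on GV1 arrays 1 to 4. Its ratios were -1.06, -0.57, -0.43 and -1.15 at GV2. At GV3 they were -1.55, -1.03, -0.70 and -0.99. All 8 arrays of GV2 and GV3 were thus below GV0, while GV1 was split, with a mean of -0.33 ± 0.60 (SD, n = 4) at GV1 and -0.80 ± 0.35 (SD, n = 4) at GV2. The single positive ID1 value came from array 3 of GV1, the array with the high theca and stroma markers. Without that array the GV1 mean of ID1 was -0.62, and the part of those markers in the result was not tested. The ID1 signal in Cy5 was above background on all 4 arrays of GV1 and of GV2 but on 1 of 4 at GV3, so the size of the GV3 ratio rests on a dim stage signal. Over the whole array, 16.4% of genes at GV2 and 17.8% at GV3 were lower on all 4 arrays.

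ID3 was measured by 5 probes. The brightest had ratios of 0.03, -2.52, -0.16 and -0.54 on GV1 arrays 1 to 4. It had -1.10, -1.63, -1.0 and -0.68 at GV2. At GV3 it had -2.58, -1.99, -1.55 and -1.27. No array of GV2 or GV3 reached the GV0 signal. The GV1 mean of -0.80 ± 1.18 (SD, n = 4) was set largely by array 2 and was -0.22 without it. The means were -1.10 ± 0.39 at GV2 and -1.85 ± 0.57 at GV3 (SD, n = 4), the latter a 3.61-fold lower signal.

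The other 4 ID3 probes also had means below 0 at GV2 and GV3, of different sizes. Their GV3 means were -0.55 ± 0.06 for probe 2, -1.14 ± 0.29 for probe 3, -0.65 ± 0.24 for probe 4 and -1.21 ± 0.19 for probe 5 (SD, n = 4 each), and every one of these 16 ratios was below 0. At GV2 the means were -0.40 ± 0.38, -0.74 ± 0.36, -0.60 ± 0.34 and -1.23 ± 0.42, and 1 of the 16 ratios, 0.11 for probe 2 on array 1, was above 0. At GV1 the means of the 5 probes ran from -0.80 to 0.06. On array 2 of GV1 each of the 5 was the lowest of its stage, between -2.52 and -0.58. The Cy5 signal of probe 4 was above background on 1 of 4 arrays at GV3 and that of probe 5 on 1 of 4, while probes 1, 2 and 3 were above it on all 4. Over the 12 arrays, the ratios of pairs of ID3 probes correlated at 0.62 to 0.98, a description only, since the probes share the same RNA. With the mean of all 5 probes in place of the brightest, the ID3 ratio at GV3 was -1.08.

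**Figure D2:**
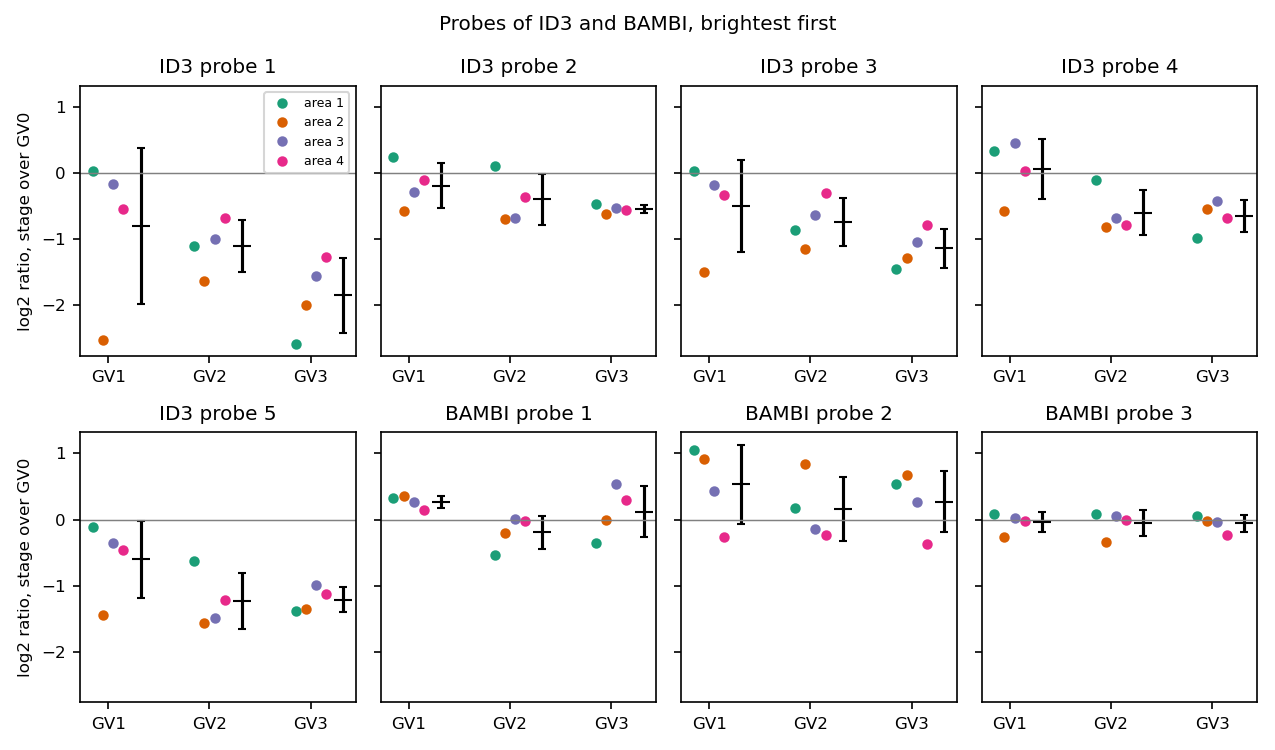
Log2 ratio of stage over GV0 for each of the 5 ID3 probes and the 3 BAMBI probes, numbered from the brightest, with 1 point per array coloured by area and the mean ± SD of the 4 arrays as a bar. All 5 ID3 probes are below 0 on each GV3 array with means between -1.85 and -0.55, while the 3 BAMBI probes differ from each other.

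ID2, which is also regulated outside BMP signalling in many cells, did not share this direction. Its ratios were 0.60, -0.05, 0.53 and -0.13 on the GV1 arrays. At GV2 they were -1.03, 0.13, 0.03 and 0.47. At GV3 they were -0.62, 0.20, -0.49 and 0.14. Each stage thus held values on both sides of GV0, with means of 0.24 ± 0.38, -0.10 ± 0.65 and -0.19 ± 0.43 (SD, n = 4), and without array 1 the GV2 mean was 0.21.

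SMAD6 is an inhibitory SMAD that binds BMP type I receptors and SMAD1. Its ratios on arrays 1 to 4 were 0.94, -0.53, -1.83 and -0.64 at GV1. They were 1.08, 0.00, -2.09 and -0.35 at GV2. They were 0.26, -1.44, -2.04 and -0.85 at GV3. Area 1 was the highest and area 3 the lowest in each stage. The mean over the stages was 0.76 for area 1 and -1.99 for area 3, a wider gap than that between the stage means of -0.52 ± 1.13, -0.34 ± 1.32 and -1.01 ± 0.98 (SD, n = 4). The GV0 channel carried much of the area 3 value: the normalised log2 Cy3 signal of SMAD6 averaged 12.89 in area 3 over the 3 slides and 11.21 to 11.41 in the other areas. This range of area means in the GV0 signal was at percentile 96 of 13455 genes, where the median gene had a range of 0.46. Without area 3 the SMAD6 means were -0.08 at GV1, 0.24 at GV2 and -0.67 at GV3, so the GV2 sign changed.

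SMAD7, the inhibitory SMAD that acts on BMP, activin and TGF-beta receptors alike, was near the limit of detection. Its Cy5 signal was above background on 1 of 4 arrays at GV1, 0 of 4 at GV2 and 2 of 4 at GV3. The ratios were -0.11, -0.04, -0.20 and 0.06 at GV1. They were 0.03, -0.14, -0.17 and -0.22 at GV2, and 0.46, -0.15, -0.10 and 0.08 at GV3. The means of -0.08 ± 0.11, -0.12 ± 0.11 and 0.08 ± 0.28 (SD, n = 4) were no larger than about 1 SD of the arrays. In Cy3 the SMAD7 signal was above background on 3, 2 and 2 of the 4 arrays, so no direction or fold is given for it.

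SKIL (also called SnoN) is a corepressor that binds SMAD complexes and is itself switched on by TGF-beta. Its ratios were 0.90, 0.68, 0.93 and 1.08 on GV1 arrays 1 to 4. They were 0.13, 0.39, 0.78 and 1.80 at GV2. They were 0.72, 0.78, 0.69 and 1.39 at GV3. All 12 were above 0. The means were 0.90 ± 0.17, 0.78 ± 0.73 and 0.90 ± 0.33 (SD, n = 4), or 1.86-fold, 1.71-fold and 1.86-fold over GV0. At GV2 the mean rested on array 4 and was 0.43 without it. Area 4 also had the lowest GV0 signal, 7.11 on average against 7.48 to 7.55 in the other areas. For comparison, 15.1%, 13.2% and 14.7% of all genes were higher on all 4 arrays of GV1, GV2 and GV3.

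BAMBI is a pseudoreceptor without a kinase that dampens TGF-beta family signalling. Its brightest probe had ratios of 0.33, 0.36, 0.26 and 0.15 on the GV1 arrays. It had -0.53, -0.21, 0.01 and -0.03 at GV2 and -0.36, 0.00, 0.53 and 0.29 at GV3. The probe was thus higher on all 4 arrays of GV1 by 0.27 ± 0.09 (SD, n = 4) and on both sides of GV0 in the other stages, where the means were -0.19 ± 0.25 and 0.12 ± 0.38. The 3 BAMBI probes disagreed. Probe 2 had means of 0.53 ± 0.60, 0.16 ± 0.49 and 0.27 ± 0.46 (SD, n = 4). Probe 3, which was above background in Cy5 on 1 of 4 arrays of each stage, had means between -0.06 and -0.04. Pairs of the 3 probes correlated at 0.04, -0.20 and -0.14 over the 12 arrays, so no direction is given for BAMBI.

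GREM1 (gremlin) is a secreted antagonist that binds BMP ligands, and in cumulus cells its transcript is a known target of oocyte factors. Its ratios were -0.64, -0.28, -0.21 and -0.76 on GV1 arrays 1 to 4. They were -0.62, -0.36, -0.10 and -0.75 at GV2. They were -0.52, -0.28, -0.12 and -0.63 at GV3. The same order of areas came back in each stage, with area 4 lowest and area 3 highest, and the means of -0.47 ± 0.27, -0.46 ± 0.29 and -0.39 ± 0.23 (SD, n = 4) were all within 0.08 of each other. The GREM1 signal in Cy5 hardly varied: it lay between 7.20 and 7.46 on the 12 arrays, an SD of 0.07 that is at percentile 2.13 of all genes. Of all genes, 17.2%, 16.4% and 17.8% were lower on all 4 arrays of GV1, GV2 and GV3. In Cy3 the GREM1 signal lay between 7.44 and 8.08, and its area means were 7.93, 7.65, 7.52 and 8.04. The spread of the GREM1 ratios therefore lay in the GV0 channel. The GREM1 signal in Cy5 was above background on all 12 arrays but dim. For comparison, the Cy5 signal of ID3 probe 4 on array 3 of GV3, 6.94, was below background. The part of this dim signal in the small Cy5 spread was not tested.

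NOG (noggin), the other secreted BMP antagonist of the set, was higher than GV0 on most arrays. Its ratios were 0.90, 1.08, 1.03 and 0.01 at GV1. They were 0.04, 1.24, 0.31 and -0.15 at GV2. They were 0.65, 1.03, 0.97 and 1.08 at GV3. Array 4 was the low one at GV1 and GV2 and the high one at GV3, so the area does not order the NOG values. The means were 0.76 ± 0.50, 0.36 ± 0.62 and 0.93 ± 0.19 (SD, n = 4), and the GV2 mean was 0.06 without array 2. The 2 antagonists thus lay on opposite sides of GV0 at GV1 and GV3, GREM1 below and NOG above.

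**Figure D3:**
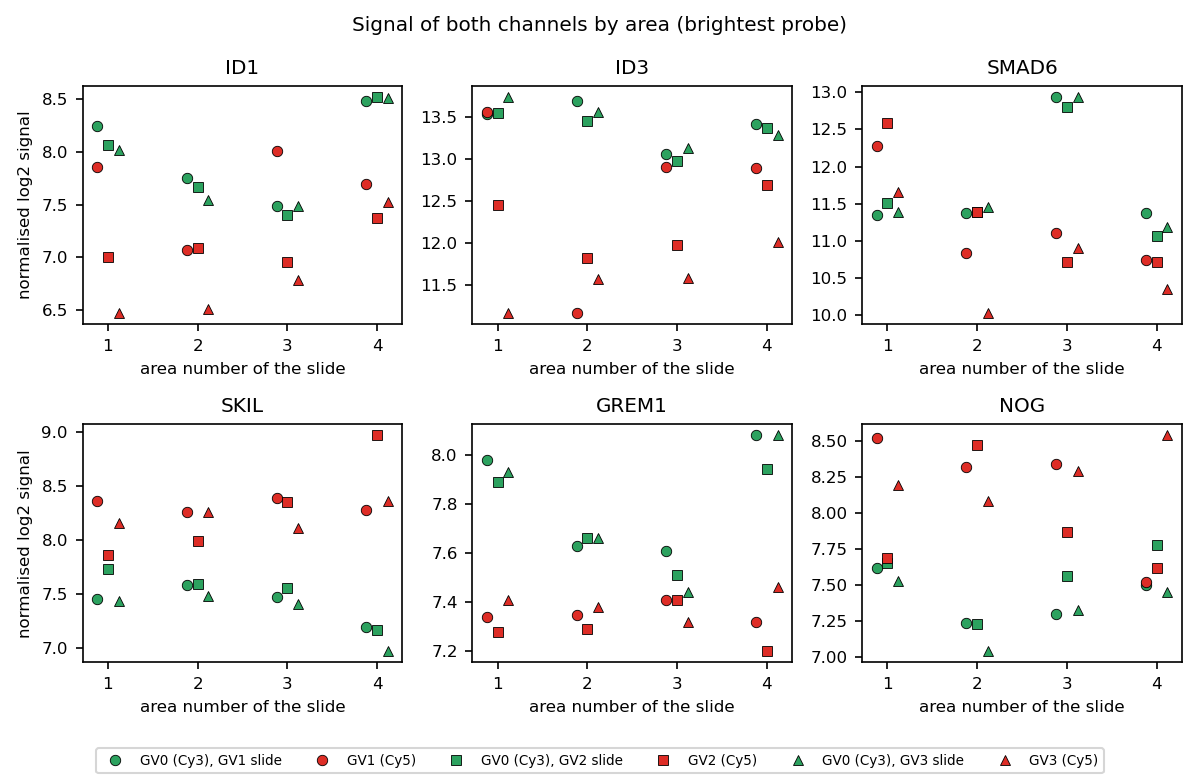
Normalised log2 signal of the brightest probe of 6 genes by area number, with the GV0 channel (Cy3) in green and the stage channel (Cy5) in red, and the 3 slides as circles (GV1), squares (GV2) and triangles (GV3). The green points of 1 area lie close together on the 3 slides, the area 3 GV0 signal of SMAD6 stands near 12.89, and the red points of GREM1 stay between 7.20 and 7.46.

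The 2 channels were also read apart. The largest range of the GV0 signal between slides within 1 area was 0.22 for ID1, 0.24 for ID3, 0.29 for SKIL, 0.17 for GREM1 and 0.33 for NOG, near the median of 0.25 over all genes. The GV0 signal of these genes was thus repeated within an area on the 3 slides. Between areas it differed more. The range of its area means was 1.05 for ID1, 0.55 for ID3, 0.44 for SKIL, 0.51 for GREM1 and 0.43 for NOG. The median gene had a range of 0.46, and ID1 was at percentile 85.9. The Cy5 signal of ID1 averaged 7.66 at GV1, 7.11 at GV2 and 6.82 at GV3, against 7.93 for GV0. That of the brightest ID3 probe averaged 12.63, 12.23 and 11.58, against 13.40. The stage means of these 2 probes were thus ordered as the stages are. The Cy5 means of ID3 probe 2 (8.76, 8.69 and 8.70) and probe 5 (7.37, 6.64 and 6.66) were not lower at GV3 than at GV2. The Cy5 SD over the 12 arrays was at percentile 93.9 for ID1 and at percentile 98 for ID3.

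Differences between the stages themselves were not detected for any gene of the array. Limma called 0 of 36321 probes between GV1 and GV2, between GV1 and GV3 and between GV2 and GV3. An unadjusted p under 0.05 was reached by 411, 684 and 1097 probes. This fit does not use the pairing by area, so the spread between areas stays in its error. With the area number as a block, 0 of 13534 genes passed in each comparison of stages. Stage differences are differences between ratios. They hold any change of the GV0 signal from slide to slide as well as that of the stage signal. A constant dye preference of a probe cancels in them. Within the same area, ID1 was lower at GV3 than at GV1 by -1.16, -0.35, -1.22 and -0.19 in areas 1 to 4, all of 1 sign, with a mean of -0.73 ± 0.54 (SD, n = 4). The brightest ID3 probe differed by -2.62, 0.53, -1.39 and -0.74 in the same comparison, so area 2 went the other way, and its mean was -1.05 ± 1.31 (SD, n = 4). From GV2 to GV3 that ID3 probe was lower in all 4 areas, by -0.75 ± 0.50 (SD, n = 4), and so was probe 3, by -0.40 ± 0.20. ID3 probes 2, 4 and 5 were not, with mean differences of -0.14 ± 0.33, -0.06 ± 0.56 and 0.01 ± 0.53 (SD, n = 4), and probes 4 and 5 were higher in 3 of 4 areas. BAMBI probe 1 was lower at GV2 than at GV1 in all 4 areas, by -0.46 ± 0.32 (SD, n = 4), and its other probes gave -0.37 ± 0.43 and -0.01 ± 0.05. GREM1 differed between stages by 0.02 to 0.08, and SKIL did not differ in its mean between GV1 and GV3, 0.00 ± 0.25 (SD, n = 4).

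For each gene, the 3 other genes whose ratios were most alike over the 12 arrays were found by Pearson's r, as a description without a p, since arrays of 1 area share a GV0 signal pattern and arrays of 1 stage share a slide. SMAD6 had by far the closest ones: EME1 at 0.998, KLHL12 at 0.998 and KRTCAP3 at 0.996, and 59 of 13454 genes reached 0.95 with it. No other gene of the set had more than 4 such neighbours. EME1, KLHL12 and KRTCAP3 also had their highest GV0 signal in area 3, by more than 1 on the log2 scale, with mean ratios in area 3 of -1.92, -2.09 and -1.77. Whether these probes share sequence was not tested, since the probe sequences are not used here. GREM1 was closest to WDR87 (0.975), RPRD1A (0.971) and ELOA (0.967). SKIL was closest to CCNL2 (0.934), ZCCHC8 (0.923) and KLF10 (0.904), the last a gene that TGF-beta switches on early. ID1 was closest to RCN1 (0.941), CCL2 (0.875) and LOC781710 (0.874). ID3 was closest to NR4A1 (0.889), an immediate early nuclear receptor whose mean ratios were -0.74, -1.01 and -1.34 at GV1, GV2 and GV3, then to ZC3H12A (0.868) and SLC4A1 (0.867). NOG was closest to MGC133764 (0.915), LRRC17 (0.901) and VAMP2 (0.899). ID2, SMAD7 and BAMBI had no gene above 0.90, and their closest were MAT2A (0.870), RAB2B (0.873) and CD200R1L (0.820).

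The other genes of the pathway were taken from a list of 89 genes by role, of which 81 had a probe and 68 a kept probe. They were tested with limma over all 12 arrays, with Benjamini-Hochberg adjustment over all 36321 kept probes. At GV1, 6 of the 68 differed from GV0, or 8.82%, against 9.47% of all genes. At GV2 4 did (5.88% against 10.3%), and at GV3 3 did (4.41% against 11%). The median ratio of the list was 0.05, 0.11 and 0.05, against 0.002, 0.001 and -0.011 over all genes. With the area number as a block, 23, 23 and 22 of the 68 passed, against 29.8%, 29.7% and 30.8% of all genes. Of those that passed, 14, 13 and 13 were higher and 9, 10 and 9 lower than GV0 in their mean ratio. Without the block, an unadjusted p under 0.05 in limma was reached by 24, 21 and 15 of the 68, and by 10000, 10027 and 10187 of all 36321 probes. With the block, 16 genes passed at all 3 stages, a count for which the share over all genes was not computed. Of these, 7 also passed at a stage without the block and are described below: HES1, GATA2, ACVR1, ACVRL1, INHA, NBL1 and CHRD. The other 9 are named here after their values were seen. INHBA, TWSG1, SMURF2, SKI, CCN2 and KLF10 had mean ratios above GV0 at all 3 stages, and TGFB3, NODAL and AMHR2 below. All but CCN2 had at least 1 array on the other side of GV0. Examples were 0.61 for AMHR2 on array 2 of GV1 and -0.66 for SMURF2 on array 3 of GV3.

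HES1, a transcription repressor that also serves as a Notch target, was the single gene of the list called at every stage without the block. Its ratios were -0.38, -0.36, -0.50 and -0.42 on the GV1 arrays, -0.28, -0.42, -0.58 and -0.34 at GV2, and -0.41, -0.53, -0.67 and -0.45 at GV3. HES1 fell by 0.41 at GV1 (SE 0.06, limma adjusted p = 0.00322), by 0.40 at GV2 (SE 0.06, limma adjusted p = 0.00341) and by 0.52 at GV3 (SE 0.06, limma adjusted p = 0.000959). It was lower on all 12 arrays, and it passed without any 1 array or area. The HES1 call was lost at all 3 stages with median spot signals, where the limma adjusted p was 0.308, 0.337 and 0.157, with the deposited series matrix values (0.245, 0.244 and 0.118), and in fits on 1 stage alone (0.0778, 0.116 and 0.0608). The HES1 ratios were -0.31, -0.29 and -0.39 in the first of these, -0.25, -0.25 and -0.32 in the second and as above in the third. With all spots in the background model HES1 did not pass at GV1 (-0.32, limma adjusted p = 0.132) or GV2 (-0.34, limma adjusted p = 0.0627), and it stayed under a fold of 1.5 at every stage. GATA2, a transcription factor that BMP can switch on, fell by 0.30 at GV1 (SE 0.07, limma adjusted p = 0.0194). The GATA2 signal was dim. At GV1 it was above background in Cy5 on 1 of 4 arrays and in Cy3 on 3 of 4. At GV2, where it fell by 0.29 (SE 0.07, limma adjusted p = 0.0201), these counts were 0 of 4 and 2 of 4, so the GV0 signal was itself only partly measured and the size of the fall is not known. The GATA2 call at GV1 was lost without array 1, 3 or 4, with ratios of -0.29, -0.29 and -0.26, and that at GV2 without array 1, 2 or 4, with -0.28, -0.23 and -0.29. Leaving out area 2 of all slides also lost the GATA2 call at GV1, with -0.34.

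Among the receptors, ACVR1 (ALK2), a type I receptor for BMPs, rose by 0.71 at GV1 (SE 0.20, limma adjusted p = 0.0469) and by 0.77 at GV2 (SE 0.20, limma adjusted p = 0.0335), on all 4 arrays of both stages. Its ratios were 1.37, 0.12, 0.90 and 0.47 at GV1 and 1.03, 0.75, 0.36 and 0.95 at GV2. The ACVR1 call at GV1 was lost without array 1, 3 or 4, with ratios of 0.50, 0.65 and 0.80, and that at GV2 without array 1, 2 or 4, with 0.69, 0.78 and 0.71. Leaving out area 2 of all slides at GV1, or area 3 at GV2, also lost the ACVR1 call, with 0.91 each. ACVRL1 (ALK1), a type I receptor best known from endothelium, fell by 0.27 at GV1 (SE 0.08, limma adjusted p = 0.049) with Cy5 above background on 1 of 4 arrays. Without array 1, 2, 3 or 4 the ACVRL1 ratio was -0.32, -0.24, -0.32 or -0.22 and no longer passed. The mean ratio of the endothelial markers lay between -0.28 and -0.04 on every array, with 5 to 9 of them above background in Cy5, and their part in the ACVRL1 value was not tested. None of 10 type II receptors and co-receptors passed at any stage, where 9.47%, 10.3% and 11% of all genes did. With the area block 1, 2 and 1 of the 10 passed at GV1, GV2 and GV3, against 29.8%, 29.7% and 30.8% of all genes.

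SMAD4, the partner shared by all branches of the pathway, rose by 0.64 at GV1 (SE 0.17, limma adjusted p = 0.0404), from 0.13 on array 3 to 1.02 on array 2. The SMAD4 call was lost without array 1, 2 or 4, with ratios of 0.71, 0.52 and 0.53. The other 4 receptor-regulated SMADs with a kept probe passed at no stage, where 9.47%, 10.3% and 11% of all genes did. Of the ligands, INHA, the alpha subunit of inhibin, rose by 0.86 at GV2 (SE 0.22, limma adjusted p = 0.0317), with 1.65, 0.50, 0.26 and 1.02 on the 4 arrays. The INHA call was lost without array 1, 2 or 4, with ratios of 0.59, 0.97 and 0.80, and INHA was called at GV3 without array 3, with 0.90 against 0.69 on all 4.

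Among 13 other secreted antagonists and modulators, 1, 0 and 2 passed at GV1, GV2 and GV3, where 9.47%, 10.3% and 11% of all genes did. All were above GV0. NBL1 (DAN), a secreted antagonist of the same family as gremlin, rose by 1.20 at GV1 (SE 0.26, limma adjusted p = 0.0159) and by 1.44 at GV3 (SE 0.26, limma adjusted p = 0.00628). Its ratios were 0.79, 0.96, 1.5 and 1.55 at GV1 and 0.41, 1.02, 1.98 and 2.35 at GV3, so it was higher on every array but over a wide range. The NBL1 call at GV1 was lost without array 3 or 4, with 1.10 and 1.08, and also without area 2 of all slides, with 1.28. At GV3 the NBL1 call was lost without area 3 or area 4 of all slides, with 1.26 and 1.14, and at GV2 NBL1 had a ratio of 0.73 and did not pass. CHRD (chordin), a secreted antagonist that binds BMPs, rose by 0.72 at GV3 (SE 0.20, limma adjusted p = 0.0428), with 1.16, 0.63, 0.51 and 0.58. Without array 1, 2, 3 or 4 the CHRD ratio was 0.57, 0.75, 0.79 or 0.76 and no longer passed, and at GV2 CHRD was called without array 3, with 0.80 against 0.60 on all 4. With the area block, 4 of the 13 antagonists and modulators passed at each stage, where 29.8%, 29.7% and 30.8% of all genes did. None of 12 other intracellular inhibitors passed without the block, where 9.47%, 10.3% and 11% of all genes did. With the block 6, 4 and 4 of the 12 passed, against 29.8%, 29.7% and 30.8% of all genes. TCF12, the E protein with a kept probe, passed in neither fit.

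The counts of the list depended on single arrays. For these counts, and for those with median centring, the share over all genes was not computed. At GV1 the count was 3, 4, 2 and 1 without array 1, 2, 3 and 4. At GV2 it was 1, 2, 7 and 1, and at GV3 3, 3, 4 and 2. Centring each array on its median in place of loess gave 10 higher and 5 lower at GV1, against 3 and 3, then 6 and 2 at GV2, against 2 and 2, and 8 and 1 at GV3, against 2 and 1. Between stages 0 of the 68 passed. An unadjusted p under 0.05 in limma was reached by 0 of them from GV1 to GV2, 1 from GV1 to GV3 and 0 from GV2 to GV3. With the area block 0 passed too, and the unadjusted counts were 5, 3 and 4. The share over all genes at this unadjusted level was not computed with the block.

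**Figure D4:**
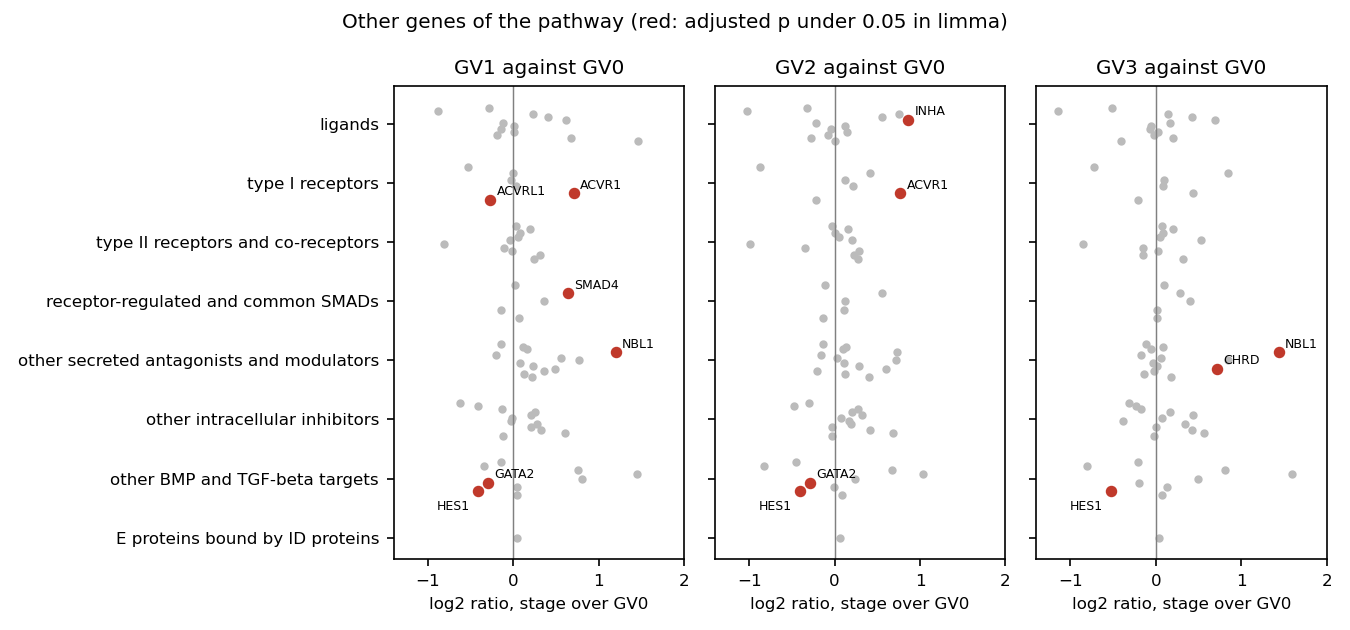
Log2 ratio of stage over GV0 for the 68 other pathway genes by role, 1 point per gene (mean of 4 arrays), with genes past an adjusted p under 0.05 in red and named. The list spreads around 0 at each stage, and HES1, at -0.41, -0.40 and -0.52, is the single gene named in all 3 panels, which show the fit without the area block.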

How the data were processed

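Cumulus cell RNA was measured on 12 two-colour arrays of 45220 spots, of which 1426 were control spots (153 negative controls). The deposited scanner tables hold, per the file headers, mean and median spot intensity and local background intensity of both channels, not normalised. A flag column of another kind is deposited too, and its rule is not given in the sources used here. Over the 12 arrays, 276 flagged probe spots were left out. The deposited series matrix holds log2 ratios. It matched median signals after loess without background correction (r 1.00, median absolute difference 0.000472), in the direction stage over GV0, with array medians between -0.01 and 0.00 and no scaling between arrays. It served as an alternative.

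In R 4.3.3 with limma 3.58.1, mean signals were background-corrected (normexp, offset 50) and normalised by loess within arrays with control spots at weight 0. Channel signals were also scaled between arrays (Aquantile). Probes were kept if Cy5 or Cy3 was more than 2 SD over the negative control mean on 3 or 4 arrays in any stage, and 7473 were dropped. A gene is read from its brightest kept probe. The limma model had 1 coefficient per stage over all 12 arrays (9 residual degrees of freedom), Benjamini-Hochberg adjustment over kept probes and a threshold of 0.05. The number of arrays limits the precision.

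The area number paired the arrays: deviations from stage means correlated at 0.492 to 0.735 between slides in the same area, against -0.464 to 0.0663 between areas. Blocked counts (area number as a fixed block) therefore stand beside the counts they change. For a stage over GV0, this block takes the spread between areas out of the error. A blocked call thus does not say that the areas shared a direction.

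Probe genes came from the platform's annotation: 21790 probes carried 1 or more symbols, of 15229 distinct ones, and against RefSeq genes of ARS-UCD2.0, used for names alone, 14114 were current, 982 were renamed and 133 were unmatched. The genes, the pathway and marker lists and the alternatives were chosen with earlier results of these data known. Named genes were the BMP genes themselves, the called genes of the pathway list (at most 8 by size in a comparison) and the 3 genes closest in pattern to each BMP gene. Alternatives were other signals, background corrections, normalisations, filters, blocks, probe summaries, thresholds and sets of arrays.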

Additional observations from a re-analysis of the deposited data

Results flagged for a closer look

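SKIL on array 4 of GV3 had a log2 ratio of 1.39, apart from the other 3 arrays of the stage at 0.69 to 0.78. Its gap to the nearest array was 0.874 of the range of the 4, above Dixon's 95% critical value for 4 values. It was the single such array among 69 groups of 4 arrays examined. Chance alone gives about 1 in every 20 groups, so 1 among 69 is no more than chance gives. Without that array the SKIL mean at GV3 was 0.73.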

How the results depend on the processing

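No BMP gene or pathway gene that passed the threshold changed sign under any alternative tried. The counts of genes past the threshold moved more. The share of all genes past it was computed only for the main fit and the replicate block. Under the other alternatives, a change in these counts cannot be told from a change over the whole array. Of the pathway genes, 6 passed at GV1, 4 at GV2 and 3 at GV3. The count at GV1 was 0 with median spot signals, 0 with all spots in the background model, 0 with the series matrix values, 0 with the arrays of that stage alone (unadjusted p under 0.05 in limma for 19, 15, 19 and 21), 2 when every array had to be above background for both dyes, 3 with an added minimum fold of 1.5 and 15 with median centring. At GV2 these were 1, 0, 1, 0, 2, 2 and 8 (unadjusted 15, 15, 17 and 20 for the first 4), and 7 with a random block. At GV3 the count was 5 with all spots, 9 with median centring, 7 with a random block and 0 with that stage alone (unadjusted 18). The replicate block gave 23, 23 and 22, and it changed the BMP genes from 3, 3 and 4 to 4, 4 and 6. Of all genes, 29.8%, 29.7% and 30.8% passed with that block. BMP genes past the threshold at GV1 numbered 1, 0, 1, 1 and 0 with median signals, all spots, series matrix, both channels and that stage alone. At GV2 each of these gave 0 (unadjusted 3, 4, 3, 3 and 4), and at GV3 the series matrix gave 2 and that stage alone 0 (unadjusted 6). Leaving out arrays gave 1 to 4, 1 to 7 and 1 to 4 pathway genes, and 0 to 2, 0 to 2 and 0 to 3 BMP genes. A lone-stage fit has fewer arrays, and the cause of the other changes was not tested. Between stages the counts stayed at 0. Dim probes limit SMAD7, BAMBI probe 3, ID3 probes 4 and 5 and ID1 at GV3.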
